A study of Mus musculus with 16 samples.

Results

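Lysosomes are the acid compartments in which cells break down protein, glycogen, complex sugars and lipids. The 36 genes described here encode parts of that machinery: 10 cathepsins, 7 glycosidases, 7 other hydrolases and activator proteins, 6 lysosomal membrane proteins and 6 subunits of the vacuolar proton pump (V-ATPase). A gene was taken through the array probes whose RefSeq accession belongs to it, which gave 46 probes. All 36 genes passed the filter on dim probes and were tested among 21281 genes on the array. Where a gene had several probes (9 of the 36), its brightest probe stood for it.

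The RNA came from quadriceps muscle of male mice aged 8 weeks. There were 4 groups of 4 samples with 1 Cy3 array each: mFoxO-TKO fasted, mFoxO-TKO fed, WT fasted and WT fed. In mFoxO-TKO mice (mFoxO1,3,4-/-), Cre recombinase driven by the human α-actin (HSA) promoter deletes Foxo1, Foxo3 and Foxo4 in skeletal muscle, so other cells of the tissue keep these genes. Fasting lasted 24 h in individual cages, and fed mice had free access to chow. The labels do not say in so many words that each sample is a separate mouse, so p-values measure the spread between these samples. The tissue was taken whole, and in whole tissue fewer cells of a type and less RNA per cell cannot be told apart.

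Hydrolases reach the lysosome with the help of sorting receptors and work at the low pH that the V-ATPase maintains by coupling ATP hydrolysis in its V1 sector to proton transport through its V0 sector. Many lysosomal genes carry the CLEAR element near their start, the site bound by the transcription factor TFEB and its relatives. In muscle, fasting lowers insulin signalling and lets FoxO factors enter the nucleus, where they are known for driving genes of autophagy and proteasomal breakdown, with Ctsl as one of the genes classed as atrophy genes. The comparisons ask how fasting changed these transcripts with and without the muscle FoxO factors.

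The knockout and the arrays were checked first. Foxo1 lay between 1.77 and 2.12 in fasted and between 0.66 and 1.63 in fed mFoxO-TKO muscle, against 4.92 to 5.98 in fasted and 2.66 to 3.11 in fed WT muscle, on the scale used throughout: log2 of the processed signal minus the array's 75th percentile. None of the mFoxO-TKO arrays read Foxo4 well above background, and it was at least 6.14-fold lower than WT in fasted and at least 6.62-fold lower in fed muscle. The Foxo3 probe did not pass in fasted (adjusted p = 0.0976) or fed muscle (adjusted p = 0.299); the position of these probes against the deleted exons is not given in the sources used here. Between 45.0% and 75.2% of spots were well above background on an array. The fasted mFoxO-TKO replicate 1 array had the lowest share and a patch of lost signal over 5.68% of its spots, so that results are also given without it. Patches on other arrays covered at most 0.484% of spots. Replicates 1 and 2 shared a first slide and replicates 3 and 4 a second, and each group kept its own array column on both, so that column and group cannot be told apart. Levels of different probes are not compared, since probes differ in brightness for the same amount of RNA.

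The promoter windows of these genes are shown first because they differ in the short motifs that TFEB-type and FoxO factors bind. RefSeq windows of 300 bases (250 before to 50 after the annotated start, build GRCm38.p6) were on hand for 30 of the 36 genes. The E-box core CACGTG, searched on both strands, was in the windows of 14 of those 30 genes (46.7%), against 8.09% of all genes with a window. The longer TCACGTGA, the centre of the CLEAR element, holds CACGTG within it and was in windows of 7 genes (23.3%), against 1.12% of all genes. The FoxO core TAAACA was in windows of 3 genes (Ctsk, Ctsl and Ppt1), which is 10%, against 15.1% of all genes, and the full FoxO element GTAAACAA, which contains that core, was in none of the 30, against 1.32% of all genes. A match is a run of letters and not a shown site, and no match says only that these letters are not in this window. The 6 windows below belong to genes that passed a test reported below and hold the E-box core; capitals mark CACGTG and TAAACA on either strand, and each window reads 5′ to 3′ along its gene. They lie at chr19:4854915-4855214 on the plus strand (Ctsf), chr13:64370471-64370770 on the minus strand (Ctsl), chr9:114400828-114401127 on the plus strand (Glb1), chr7:126583187-126583486 on the minus strand (Cln3), chr8:105566015-105566314 on the minus strand (Atp6v0d1) and chr16:44139210-44139509 on the minus strand (Atp6v1a).
Ctsf: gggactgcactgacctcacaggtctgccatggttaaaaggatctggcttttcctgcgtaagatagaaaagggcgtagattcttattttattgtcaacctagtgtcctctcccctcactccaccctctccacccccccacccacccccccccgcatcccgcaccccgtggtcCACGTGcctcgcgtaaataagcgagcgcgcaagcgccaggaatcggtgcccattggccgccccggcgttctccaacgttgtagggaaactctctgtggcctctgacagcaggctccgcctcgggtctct
Ctsl: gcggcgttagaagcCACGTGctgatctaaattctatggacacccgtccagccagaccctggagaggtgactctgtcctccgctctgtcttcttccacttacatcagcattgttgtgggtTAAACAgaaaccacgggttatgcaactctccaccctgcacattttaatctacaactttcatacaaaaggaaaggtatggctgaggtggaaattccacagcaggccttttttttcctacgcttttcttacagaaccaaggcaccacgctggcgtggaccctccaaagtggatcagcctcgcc
Glb1: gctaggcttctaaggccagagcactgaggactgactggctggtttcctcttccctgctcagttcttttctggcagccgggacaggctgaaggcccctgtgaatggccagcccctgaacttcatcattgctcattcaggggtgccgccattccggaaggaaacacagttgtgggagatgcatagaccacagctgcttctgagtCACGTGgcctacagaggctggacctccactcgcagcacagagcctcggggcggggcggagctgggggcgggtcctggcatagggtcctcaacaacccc
Cln3: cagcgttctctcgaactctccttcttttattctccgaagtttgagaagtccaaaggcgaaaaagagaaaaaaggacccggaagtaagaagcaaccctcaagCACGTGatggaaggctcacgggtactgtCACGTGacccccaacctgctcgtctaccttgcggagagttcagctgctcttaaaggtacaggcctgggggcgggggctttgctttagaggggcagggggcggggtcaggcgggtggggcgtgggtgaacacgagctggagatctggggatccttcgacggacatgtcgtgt
Atp6v0d1: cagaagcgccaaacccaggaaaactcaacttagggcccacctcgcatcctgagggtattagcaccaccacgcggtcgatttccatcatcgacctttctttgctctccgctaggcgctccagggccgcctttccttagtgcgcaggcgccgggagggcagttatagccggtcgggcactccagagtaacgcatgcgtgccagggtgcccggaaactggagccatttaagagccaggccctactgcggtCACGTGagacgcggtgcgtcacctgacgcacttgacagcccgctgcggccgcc
Atp6v1a: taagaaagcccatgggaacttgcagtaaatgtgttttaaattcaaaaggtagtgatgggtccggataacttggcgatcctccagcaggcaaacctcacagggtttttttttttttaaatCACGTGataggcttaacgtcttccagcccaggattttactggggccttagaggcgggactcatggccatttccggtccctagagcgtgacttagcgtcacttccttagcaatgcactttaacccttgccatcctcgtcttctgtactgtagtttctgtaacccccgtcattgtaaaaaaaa

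Counted from the annotated start, the E-box core began at -236 and the FoxO core at -131 in Ctsl, the only one of the 6 windows with both. The CLEAR centre began at -132 in Atp6v1a, at -4 in Atp6v0d1 and at -122 in the second annotated start of Cln3, which is the window printed. Ctsf and Glb1 held the E-box core alone, at -79 and -48. Lamp1 had 4 E-box cores in its window. The other genes with an E-box core were Ctsa, Ctsd, Gaa, Gla, Naglu, Sgsh and Mcoln1.

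**Figure D1:**
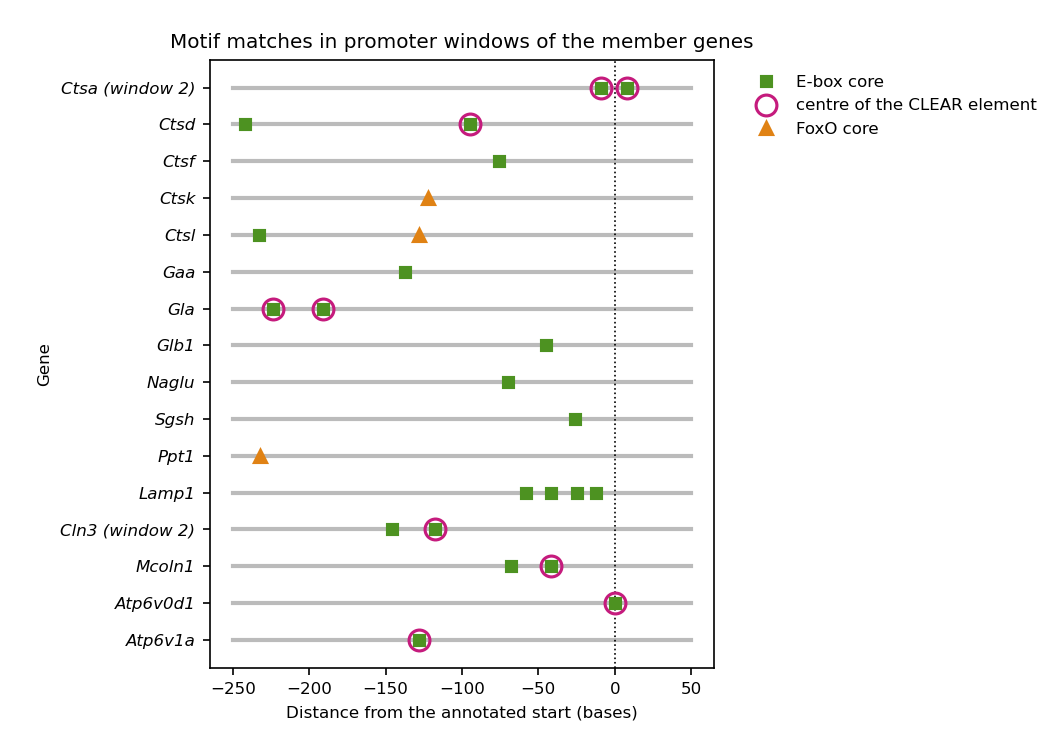
Positions of the searched motifs in the promoter windows of the lysosomal genes, as distance from the annotated start in bases on the x axis, with 1 row per gene window that holds a match. Symbols stand for the E-box core, the CLEAR centre and the FoxO core, drawn at the centre of each match; only Ctsl shows both an E-box core (first base at -236) and a FoxO core (first base at -131).

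Fasting changed part of the set in both directions, and fewer members passed in the knockout than in WT. In mFoxO-TKO muscle, fasting raised 3 members (4.29% of all genes rose) and lowered 1 (4.22% of all genes fell) at an adjusted p under 0.05 in limma, over all 21281 genes. In WT muscle, fasting raised 9 of 36 members (11.2% of all genes rose) and lowered 6 (9.57% of all genes fell). The median change over all 36 members was -0.03 on the log2 scale in mFoxO-TKO and 0.05 in WT muscle, beside 0.04 and 0.02 over all genes tested; it covers members that rose and members that fell. The number of members that passed in one genotype and not the other is not a test of a difference between them, which is given further below.

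Several settings moved these counts. The replicate numbers, which mark slide and array row, were taken as pairs of the mFoxO-TKO samples, on grounds given with the processing. The block was fitted over all 16 arrays at once, so the WT samples were blocked by number too. With this replicate block 8 members passed for fasting in mFoxO-TKO muscle, 4 higher and 4 lower. With the slide as a block, 9 members passed in mFoxO-TKO and 16 in WT muscle. The share of all genes that passed moved as well: for mFoxO-TKO it was 14.9% with the replicate block and 13.1% with the slide as a block, against 8.51% without a block, and for WT 27.8% with the slide as a block, against 20.8%. Within slide 1 alone, with 2 samples a group, 0 passed in mFoxO-TKO by limma (3 had an unadjusted p under 0.05) and 2 in WT muscle, and within slide 2 alone 3 and 14. Shares of all genes that passed were 0.315% and 3.48% within slide 1, and 7.56% and 22.2% within slide 2. The calls that held within slide 1 were those of Npc1 and Atp6v1h for fasting in WT muscle and of Npc1 for the knockout in fasted muscle. Without the fasted mFoxO-TKO replicate 1 array, 5 members passed in mFoxO-TKO muscle (2 higher, 3 lower) and 17 in WT muscle (11 higher, 6 lower), beside 9.91% and 25.4% of all genes. The mFoxO-TKO count was 2 without mFoxO-TKO fasted 3 or 4, mFoxO-TKO fed 2, 3 or 4, WT fasted 4 or any WT fed array, where 5.07% to 8.24% of all genes passed. The WT count fell to 8 without WT fasted replicate 4 and to 9 without WT fed replicate 1 or replicate 3. The matching shares of all genes were 18.6%, 17.4% and 16.6%, against 20.8%. Scaling on probes well above background on every array instead moved the median of all genes for fasting in WT muscle by over 0.1, to -0.11 on the log2 scale, and put the share of higher genes among all genes called at 37.5%, against 54.0% on the main scale. On that scaling 9 members were higher and 8 lower in WT muscle, and 29.5% of all genes passed. Without the filter on dim probes, when 36717 genes were tested, 11 member calls ended: Ctsf and Glb1 for fasting in mFoxO-TKO, Ctsc, Ctsf, Gusb, Ppt1, Cln3, Atp6v0d1 and Atp6v1b2 for fasting in WT, Npc1 for the knockout in fed muscle and Ctsl for the difference in response. In these contrasts 2.70%, 9.52%, 0.297% and 0.215% of all genes then passed, against 8.51%, 20.8%, 1.02% and 1.15%.

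**Figure D2:**
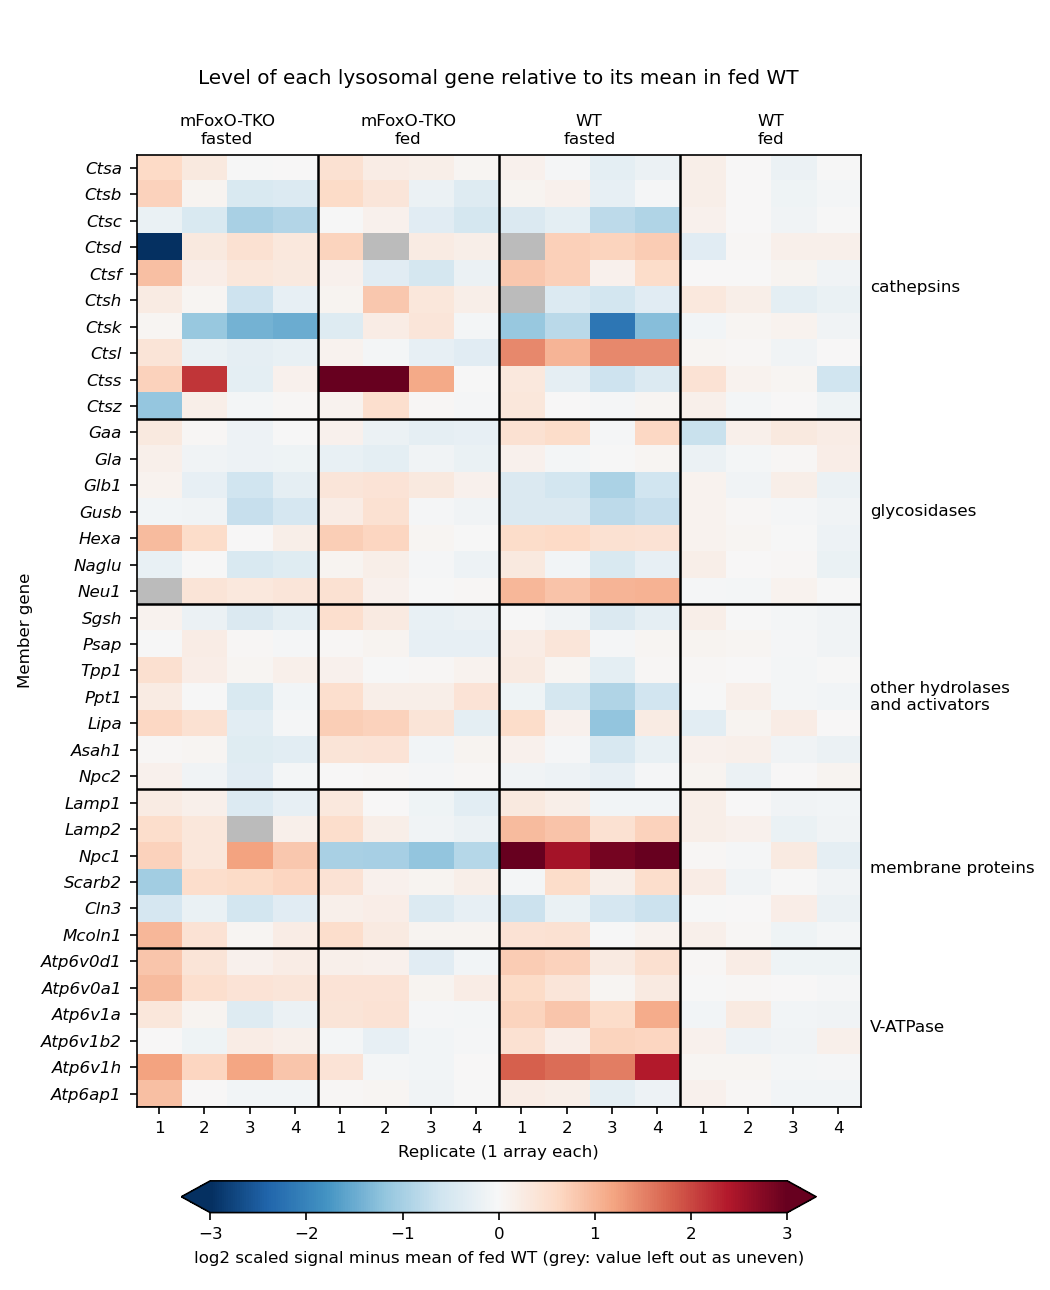
Heat map of the 36 lysosomal genes (rows, grouped by class) on the 16 arrays (columns, mFoxO-TKO fasted, mFoxO-TKO fed, WT fasted, WT fed), as log2 level relative to the mean of fed WT muscle, with grey for uneven spots left out. Npc1 and Atp6v1h are highest in fasted WT muscle, where Npc1 is 2.99 above fed WT on average, and the Ctsd cell of fasted mFoxO-TKO replicate 1 stands far below its group.

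The knockout lowered 5 of the 36 members in fasted muscle and 1 in fed muscle. In fasted muscle the 5 members lower in mFoxO-TKO than in WT were Npc1, Ctsl, Atp6v1h, Atp6v1a and Neu1 (5% of all genes were lower), and 0 were higher by limma at an adjusted p under 0.05 (4.41% of all genes were higher); 2 were higher at an unadjusted p under 0.05. In fed muscle Npc1 was the 1 member lower in mFoxO-TKO (0.512% of all genes were lower) and 0 were higher by limma (0.507% of all genes were higher), with 1 higher at an unadjusted p under 0.05. The knockout contrast in fasted muscle shares the fasted WT samples with that of fasting in WT muscle, and the one in fed muscle shares the fed WT samples with it. The median over the 36 members was -0.05 in fasted and 0.09 in fed muscle, beside 0.04 and 0.01 over all genes. With the replicate block 9 members passed in fasted muscle, 2 higher and 7 lower (15.8% of all genes passed, against 9.41% without it), and with the slide as a block 8 (14.2%), while within the slides 1 and 4 passed. In fed muscle 2 passed with the slide as a block, and 1 and 0 by limma within slides, where 4 and 5 had an unadjusted p under 0.05. The matching shares of all genes were 1.98% with that block, and 1.12% and 0.155% within slides, against 1.02%. Scaling on probes well above background on every array gave 10 members in fasted muscle, 4 higher and 6 lower (15.9% of all genes passed), and a share of higher genes among all genes called of 59.9%, against 46.9% on the main scale. Without the fasted mFoxO-TKO replicate 1 array, 5 members passed in fasted and 1 in fed muscle, beside 10.8% and 1.46% of all genes.

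**Figure D3:**
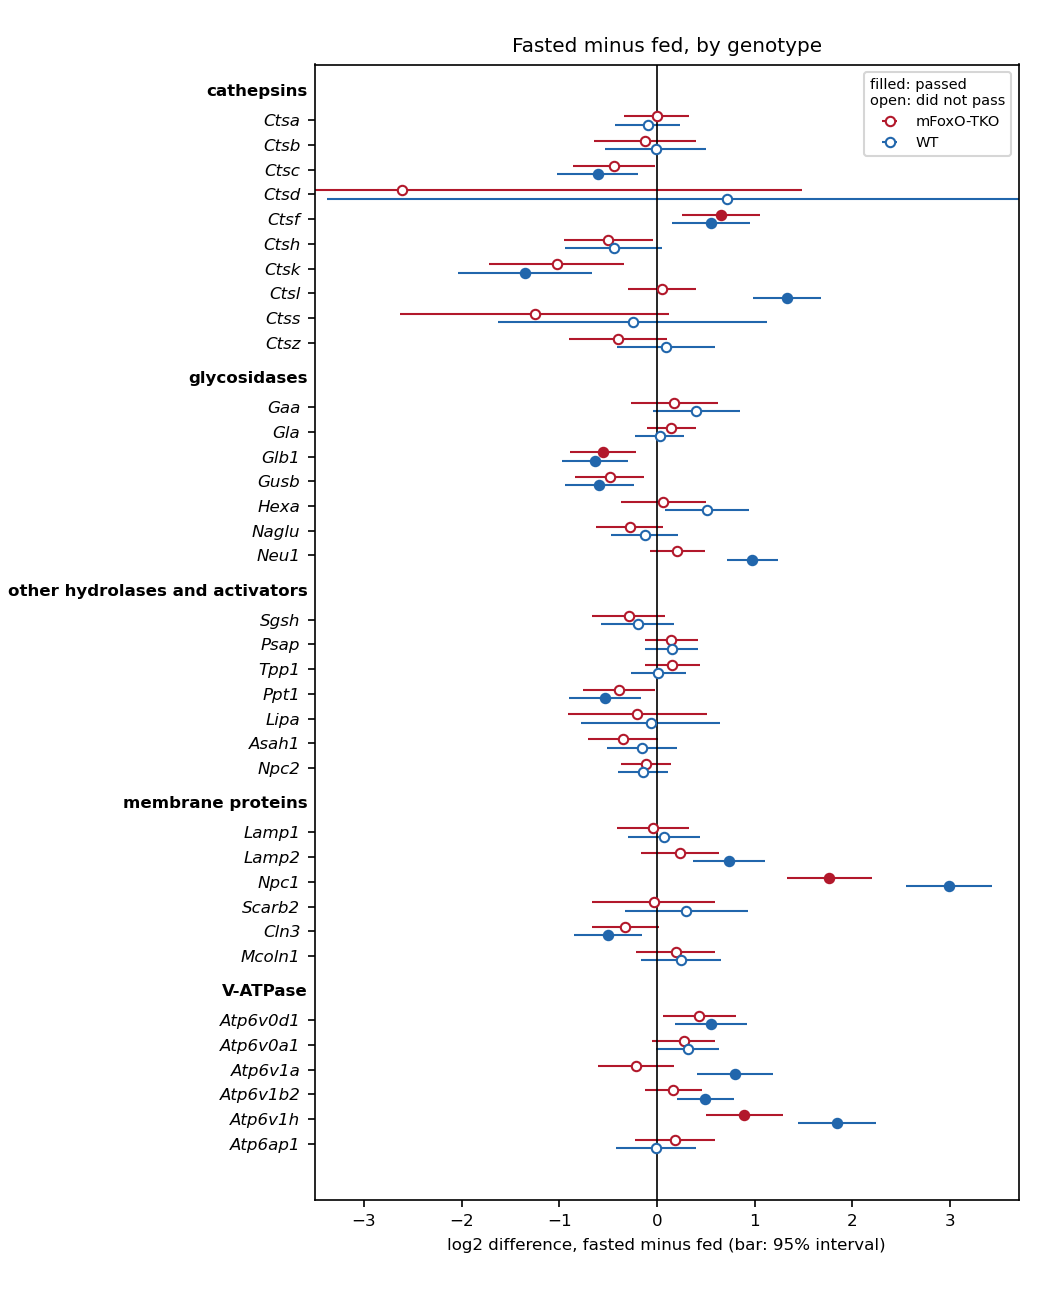
Fasted minus fed difference of each lysosomal gene on the log2 scale (x axis), mFoxO-TKO in red above WT in blue, with 95% intervals from limma; filled points passed at an adjusted p under 0.05. Npc1 stands at 1.76 in mFoxO-TKO and 2.99 in WT, and Ctsl at 0.05 in mFoxO-TKO and 1.33 in WT; the Ctsd intervals run off the axis.

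Among the 10 cathepsins, the proteases of the lysosome, 1 rose with fasting in mFoxO-TKO muscle and 2 rose and 2 fell in WT muscle. Of all genes, 4.29% rose in mFoxO-TKO muscle, and 11.2% rose and 9.57% fell in WT muscle. Ctsl, a broad cysteine endopeptidase, was the member that passed the test of a different response to fasting in the knockout, given further below. Ctsl stood at 6.12, 5.53, 5.46 and 5.50 in fasted and 5.84, 5.69, 5.48 and 5.41 in fed mFoxO-TKO muscle, and at 7.17, 6.75, 7.17 and 7.18 in fasted against 5.79, 5.77, 5.64 and 5.75 in fed WT muscle. All 4 fasted WT samples lay above the other 12 samples, which overlapped with each other. Fasting raised Ctsl by 1.33 ± 0.16 (SE) on the log2 scale in WT muscle, 2.52-fold (adjusted p = 4.22e-05), while the mFoxO-TKO value was 0.05 ± 0.16 (adjusted p = 0.896; 95% interval -0.29 to 0.40). In fasted muscle Ctsl was 2.67-fold lower in mFoxO-TKO (log2 difference -1.41 ± 0.16, adjusted p = 4.16e-05). Within slides 1 and 2 that difference was -1.13 and -1.69, the first not passing (adjusted p = 0.10).

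Ctsk, the collagen-degrading cathepsin best known from osteoclasts, moved the other way. It stood at 2.51, 1.31, 1.03 and 0.95 in fasted and 2.06, 2.67, 2.80 and 2.39 in fed mFoxO-TKO muscle, and at 1.30, 1.63, 0.27 and 1.16 in fasted against 2.37, 2.51, 2.56 and 2.34 in fed WT muscle. The WT groups did not overlap, and in mFoxO-TKO the fasted replicate 1 array lay among the fed samples. Fasting lowered Ctsk 2.55-fold in WT muscle (log2 change -1.35 ± 0.32, adjusted p = 0.00718), and the mFoxO-TKO value was -1.03 ± 0.32 (adjusted p = 0.0634), which passed with the slide as a block (adjusted p = 0.0411) and not with the replicate block (adjusted p = 0.0605). Without that array it was -1.38 (adjusted p = 0.00429), and with array weights -1.49 (adjusted p = 7.89e-05). Within slides 1 and 2 the mFoxO-TKO value was -0.45 and -1.60. Ctsc, the dipeptidyl peptidase that activates granule proteases of immune cells, stood at 2.34, 2.09, 1.57 and 1.68 in fasted and 2.52, 2.67, 2.22 and 2.02 in fed mFoxO-TKO muscle, and at 2.10, 2.24, 1.76 and 1.64 in fasted against 2.67, 2.55, 2.43 and 2.54 in fed WT muscle. Its WT groups did not overlap and its mFoxO-TKO groups did. Ctsc fell by 0.61 ± 0.20 in WT muscle (adjusted p = 0.0378), a call lost when any of 6 arrays was left out: WT fasted 3 or 4, or any WT fed array (highest adjusted p = 0.108). In mFoxO-TKO muscle the value was -0.44 (adjusted p = 0.198), and it passed with the replicate block.

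Ctsf, another cysteine protease, was the cathepsin that rose with fasting in both genotypes. It averaged 2.02 ± 0.32 in fasted and 1.36 ± 0.27 in fed mFoxO-TKO muscle, and 2.14 ± 0.30 in fasted against 1.59 ± 0.08 in fed WT muscle (SD, n = 4 each). The changes were 0.66 ± 0.19 (adjusted p = 0.0406) in mFoxO-TKO and 0.55 ± 0.19 (adjusted p = 0.0494) in WT muscle. Both calls sat close to the threshold. Leaving out 1 array ended the mFoxO-TKO call for 11 of the 16 arrays, all but mFoxO-TKO fasted 2, mFoxO-TKO fed 1 and WT fasted 1, 2 and 3 (adjusted p up to 0.125). It ended the WT call for 12 arrays, all but mFoxO-TKO fasted 1, mFoxO-TKO fed 1 and 3 and WT fasted 3 (adjusted p up to 0.137), and so did quantile normalization (adjusted p = 0.0526).

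The aspartic protease Ctsd and the cysteine protease Ctss were chosen after their values were seen. The main Ctsd probe stood at -3.81, 6.52, 6.70 and 6.56 in fasted mFoxO-TKO muscle, with 6.91, 6.48 and 6.42 in fed mFoxO-TKO muscle (replicate 2 left out as uneven), 6.96, 6.90 and 7.01 in fasted WT (replicate 1 left out as uneven) and 5.90, 6.27, 6.40 and 6.39 in fed WT muscle. The first of these spots lay in the patch of lost signal, and its value widened the interval of fasting in WT muscle to -3.37 to 4.81. With spots in patches left out, Ctsd was higher by 0.72 in fasted WT muscle (adjusted p = 0.00674), and a second Ctsd probe gave 0.57 ± 0.13 (adjusted p = 0.00555) in WT and 0.27 ± 0.13 (adjusted p = 0.239) in mFoxO-TKO muscle. Ctss, a protease of antigen-presenting cells, stood at 2.16, 3.60, 1.17 and 1.59 in fasted and 4.71, 4.77, 2.59 and 1.46 in fed mFoxO-TKO muscle, and at 1.78, 1.19, 0.84 and 1.06 in fasted against 1.91, 1.58, 1.51 and 0.87 in fed WT muscle. The spread in the knockout was wide, with the fed samples of slide 1 highest. Its mFoxO-TKO minus WT difference in fed muscle was 1.92 ± 0.64 (adjusted p = 0.246); it was 3.00 within slide 1 (adjusted p = 0.035) and 0.84 within slide 2 (adjusted p = 0.585), and it passed with the slide as a block (adjusted p = 0.0461).

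The remaining cathepsins passed in none of the contrasts. Ctsb, an abundant cysteine protease, differed by -0.12 between fasted and fed mFoxO-TKO muscle and by -0.01 in WT muscle (95% interval -0.53 to 0.51). The aminopeptidase Ctsh, with 1 uneven fasted WT spot left out, gave -0.50 in mFoxO-TKO and -0.44 in WT muscle (adjusted p = 0.184 and 0.208). Its spot on the fed WT replicate 3 array, at 2.76 the lowest of that group, lay in a smaller patch of lost signal. The carboxypeptidase Ctsz gave -0.40 and 0.09; its spot on the fasted mFoxO-TKO replicate 1 array lay in the patch of lost signal, and without that array the mFoxO-TKO value was -0.09. Ctsa, the carboxypeptidase that shields Neu1 and Glb1 in a complex, gave 0.00 and -0.09, and was 0.32 higher in fasted mFoxO-TKO than in fasted WT muscle (adjusted p = 0.262), which passed with the replicate block.

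Markers of other cells were read beside these values, since cathepsins are also abundant in macrophages and fibroblasts. Of 14 macrophage markers 13 were measured (Cd163 was not kept), and with fasting 0 rose by limma and 2 fell in mFoxO-TKO and likewise in WT muscle, with a median of -0.84 and -0.57 on the log2 scale. Among all genes 4.29% rose and 4.22% fell in mFoxO-TKO muscle, and 11.2% rose and 9.57% fell in WT muscle. At an unadjusted p under 0.05, 0 rose in either genotype, and 7 fell in mFoxO-TKO and 3 in WT muscle, where 2278 and 3245 of all 21281 genes fell at that p. Their summed level (relative to the 75th percentile, not log) ran from 17.8 to 40.5 in fasted and 29.6 to 68.0 in fed mFoxO-TKO muscle, and from 18.2 to 23.6 in fasted against 20.4 to 37.0 in fed WT muscle. Between genotypes the macrophage median was 0.53 in fasted and 0.72 in fed muscle, with 1 marker, Mrc1, higher in fasted mFoxO-TKO muscle (4.41% of all genes were higher). In fed muscle 0 macrophage markers passed by limma, and 7 of the 13 were higher in mFoxO-TKO at an unadjusted p under 0.05, as were 1197 of all 21281 genes. Of 9 fibroblast markers, 2 fell with fasting in mFoxO-TKO and 4 in WT muscle (4.22% and 9.57% of all genes fell). Lum fell most, by 2.18 and 2.59, and the medians were -0.55 and -0.45. Values above 0 were seen for 2 of the 9 in mFoxO-TKO and 3 in WT muscle, none of them passing. The sums over the 7 of them with a value on every array were 413 to 506 in fasted and 449 to 494 in fed mFoxO-TKO muscle, and 434 to 624 in fasted against 480 to 721 in fed WT muscle. Of 12 myofibre markers 0 passed in any contrast by limma, with medians between -0.07 and 0.11 in the 4 contrasts of 2 groups; 1 had an unadjusted p under 0.05, for the knockout in fasted muscle. The part of these cells in the lysosomal changes was not tested.

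Of the 7 glycosidases, which trim sugars from glycoproteins, glycolipids and glycogen, 1 fell with fasting in mFoxO-TKO muscle (4.22% of all genes fell). In WT muscle 1 rose (11.2% of all genes rose) and 2 fell (9.57% of all genes fell). Neu1, the lysosomal sialidase, stood at 3.62, 3.54 and 3.60 in fasted mFoxO-TKO muscle (replicates 2 to 4, with the uneven spot of replicate 1 left out) and 3.68, 3.35, 3.21 and 3.26 in fed mFoxO-TKO muscle, and at 4.22, 4.07, 4.24 and 4.27 in fasted against 3.19, 3.18, 3.33 and 3.21 in fed WT muscle. As with Ctsl, the fasted WT samples stood above all others. Fasting raised Neu1 by 0.97 ± 0.12 in WT muscle (1.96-fold, adjusted p = 7.15e-05), and the mFoxO-TKO value was 0.21 ± 0.13 (adjusted p = 0.399; 95% interval -0.07 to 0.49). In fasted muscle it was 1.54-fold lower in mFoxO-TKO than in WT (-0.62 ± 0.13, adjusted p = 0.00778).

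The β-galactosidase Glb1 fell with fasting in both genotypes. It stood at -0.45, -0.78, -1.14 and -0.80 in fasted and -0.18, -0.14, -0.24 and -0.41 in fed mFoxO-TKO muscle, and at -0.96, -1.09, -1.5 and -1.14 in fasted against -0.44, -0.64, -0.37 and -0.71 in fed WT muscle. Fasted and fed samples did not overlap in either genotype. Glb1 fell by 0.55 ± 0.16 in mFoxO-TKO (adjusted p = 0.0432) and by 0.63 ± 0.16 in WT muscle (adjusted p = 0.00955). The mFoxO-TKO call was lost when any array but mFoxO-TKO fasted 1 or WT fasted 1 or 3 was left out (adjusted p up to 0.136) and with normexp (-0.36, adjusted p = 0.261), while the WT call was kept with each array left out. Gusb, the β-glucuronidase, stood at 1.62, 1.58, 1.01 and 1.19 in fasted and 1.92, 2.16, 1.65 and 1.60 in fed mFoxO-TKO muscle, and at 1.27, 1.25, 0.90 and 1.0 in fasted against 1.79, 1.74, 1.66 and 1.59 in fed WT muscle. Its WT groups did not overlap, and Gusb fell by 0.59 ± 0.17 there (adjusted p = 0.0187), a call lost without WT fasted 3, WT fasted 4 or WT fed 1 (highest adjusted p = 0.0549). The mFoxO-TKO value was -0.48 ± 0.17 (adjusted p = 0.0895) and passed with the replicate block (adjusted p = 0.00768) and without the fasted mFoxO-TKO replicate 1 array (adjusted p = 0.0441), on which the Gusb spot lay in the patch.

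Gaa, the acid glucosidase that breaks down glycogen, depended on the probe. Its brightest probe averaged 6.58 ± 0.19 in fasted and 6.40 ± 0.18 in fed mFoxO-TKO muscle, and 6.94 ± 0.29 in fasted against 6.54 ± 0.45 in fed WT muscle (SD, n = 4 each), and did not pass (0.40 in WT muscle, adjusted p = 0.199). A second Gaa probe, chosen after its values were seen, rose with fasting by 0.53 ± 0.13 in mFoxO-TKO (adjusted p = 0.0186) and 0.78 ± 0.13 in WT muscle (adjusted p = 4.86e-04), and its fasted mFoxO-TKO level was 0.70 below that of fasted WT muscle (adjusted p = 0.00206). Hexa, a subunit of β-hexosaminidase, gave 0.06 in mFoxO-TKO and 0.51 in WT muscle (adjusted p = 0.0921). Gla (α-galactosidase) and Naglu, which acts on heparan sulfate, gave 0.15 and -0.28 in mFoxO-TKO and 0.03 and -0.12 in WT muscle, none passing.

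**Figure D4:**
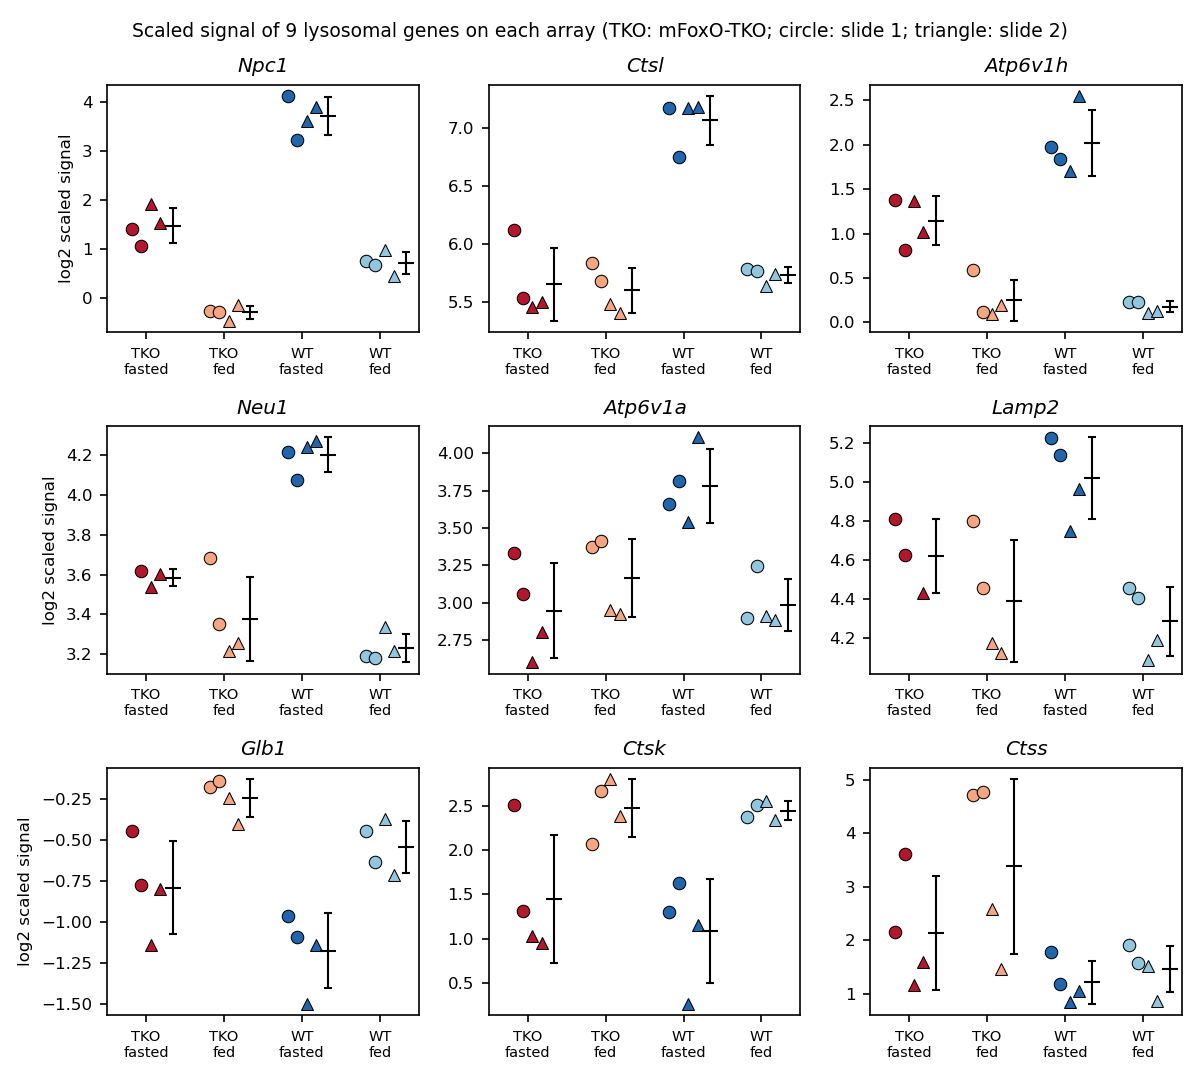
Log2 level of 9 lysosomal genes in each sample, by group on the x axis (mFoxO-TKO fasted, mFoxO-TKO fed, WT fasted, WT fed), with circles for slide 1, triangles for slide 2 and a bar for mean ± SD. Fasted WT samples stand above the rest for Ctsl (6.75 to 7.18) and Neu1 (4.07 to 4.27), while Ctss spreads from 1.46 to 4.77 in fed mFoxO-TKO muscle.

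Of the 7 other hydrolases and activators, 0 passed with fasting in mFoxO-TKO muscle by limma (1 had an unadjusted p under 0.05), where 8.51% of all genes passed. In WT muscle 1 fell (9.57% of all genes fell). That gene was Ppt1, which removes fatty acids from proteins. It stood at -0.74, -0.99, -1.43 and -1.06 in fasted and -0.48, -0.81, -0.81 and -0.58 in fed mFoxO-TKO muscle, and at -1.11, -1.52, -1.89 and -1.55 in fasted against -1.0, -0.82, -1.05 and -1.06 in fed WT muscle. The WT groups lay just apart and the mFoxO-TKO groups overlapped. Ppt1 fell by 0.53 ± 0.17 in WT muscle (adjusted p = 0.0395), which was lost without mFoxO-TKO fasted 4, mFoxO-TKO fed 4, WT fasted 2, 3 or 4, or any WT fed array (adjusted p up to 0.119); the mFoxO-TKO value was -0.39 (adjusted p = 0.203). The WT call was also lost with normexp background correction (adjusted p = 0.088). In fasted muscle the mFoxO-TKO minus WT difference of 0.46 passed with the replicate block (adjusted p = 0.0241). Asah1, acid ceramidase, stood at 1.03, 1.05, 0.63 and 0.68 in fasted and 1.38, 1.40, 0.92 and 1.07 in fed mFoxO-TKO muscle, and at 1.14, 0.97, 0.51 and 0.77 in fasted against 1.12, 1.14, 0.90 and 0.83 in fed WT muscle. Fasted and fed samples overlapped in both genotypes, with changes of -0.35 (adjusted p = 0.244) in mFoxO-TKO and -0.15 (adjusted p = 0.605) in WT muscle. In mFoxO-TKO the fasted sample was the lower one in each of the 4 pairs of the same number, and the change passed with the replicate block (adjusted p = 0.0155) and with the slide as a block (adjusted p = 0.019).

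Sgsh, a sulfatase of heparan sulfate breakdown, stood at 6.64, 6.34, 6.09 and 6.24 in fasted and 7.04, 6.79, 6.30 and 6.35 in fed mFoxO-TKO muscle, and at 6.53, 6.43, 6.10 and 6.27 in fasted against 6.70, 6.52, 6.48 and 6.43 in fed WT muscle. These overlapping groups gave -0.29 (adjusted p = 0.372) in mFoxO-TKO and -0.20 (adjusted p = 0.498) in WT muscle. A second, dimmer Sgsh probe, also chosen with its values in view, fell by 0.63 ± 0.15 in mFoxO-TKO (adjusted p = 0.0186) and by 1.16 ± 0.15 in WT muscle (adjusted p = 7.5e-05), so the probes of this gene disagree in size. The others were Psap (the precursor of the saposin activators), the peptidase Tpp1, the acid lipase Lipa and the cholesterol-binding Npc2, none of which passed in any contrast. Their fasting changes ran from -0.20 (Lipa) to 0.16 (Tpp1) in mFoxO-TKO and from -0.14 (Npc2) to 0.15 (Psap) in WT muscle.

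Of the 6 membrane proteins, 1 rose with fasting in mFoxO-TKO muscle (4.29% of all genes rose). In WT muscle 2 rose (11.2% of all genes rose) and 1 fell (9.57% of all genes fell). Npc1, which moves cholesterol out of the lysosome, had the largest change of the 36 genes in each of the fasting contrasts among those that passed. It stood at 1.41, 1.06, 1.93 and 1.52 in fasted and -0.26, -0.29, -0.46 and -0.14 in fed mFoxO-TKO muscle, and at 4.12, 3.21, 3.60 and 3.89 in fasted against 0.75, 0.68, 0.98 and 0.46 in fed WT muscle. The 4 groups were apart from each other, in the order fed mFoxO-TKO, fed WT, fasted mFoxO-TKO, fasted WT. Fasting raised Npc1 3.40-fold in mFoxO-TKO (log2 change 1.76 ± 0.21, adjusted p = 1.73e-04) and 7.93-fold in WT muscle (2.99 ± 0.21, adjusted p = 2.86e-07). It was lower in mFoxO-TKO than in WT muscle in both states, 4.67-fold when fasted (-2.22 ± 0.21, adjusted p = 6.43e-06) and 2.0-fold when fed (-1.0 ± 0.21, adjusted p = 0.0271). The fed call was lost without any one of the mFoxO-TKO fed or WT fed replicates 1, 2 and 3 (adjusted p up to 0.0997), and the difference was -0.99 and -1.02 within the slides.

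Lamp2, a main glycoprotein of the lysosomal membrane needed for fusion with autophagosomes, stood at 4.81, 4.62 and 4.43 in fasted mFoxO-TKO muscle (replicates 1, 2 and 4, with the uneven spot of replicate 3 left out) and 4.80, 4.46, 4.17 and 4.12 in fed mFoxO-TKO muscle, and at 5.23, 5.14, 4.75 and 4.97 in fasted against 4.46, 4.41, 4.09 and 4.19 in fed WT muscle. The WT groups did not overlap and the mFoxO-TKO groups did. Lamp2 rose by 0.74 ± 0.17 in WT muscle (1.67-fold, adjusted p = 0.00698), and its second probe by 0.86 ± 0.15 (adjusted p = 7.47e-04). In mFoxO-TKO muscle the value was 0.23 ± 0.19 (adjusted p = 0.521), and in fasted muscle the mFoxO-TKO minus WT difference was -0.40 ± 0.19 (adjusted p = 0.229), which passed with the replicate block. For these 2 comparisons the second probe gave 0.41 ± 0.15 (adjusted p = 0.109) and -0.44 ± 0.15 (adjusted p = 0.0811). Its close relative Lamp1 gave -0.04 in mFoxO-TKO and 0.07 in WT muscle (95% interval -0.30 to 0.44).

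Cln3, the membrane protein lost in juvenile Batten disease, stood at 0.81, 1.1, 0.75 and 0.97 in fasted and 1.47, 1.5, 0.89 and 1.06 in fed mFoxO-TKO muscle, and at 0.66, 1.11, 0.80 and 0.65 in fasted against 1.29, 1.31, 1.5 and 1.12 in fed WT muscle. The WT groups were barely apart. Cln3 fell by 0.50 ± 0.16 in WT muscle (adjusted p = 0.0392), which was lost without mFoxO-TKO fasted 4, WT fasted 1, 3 or 4, or WT fed 1, 2 or 3 (adjusted p up to 0.116) and with normexp (adjusted p = 0.135). Its 2 other probes disagreed, at -0.04 and -1.59 for fasting in WT muscle, the second from a dim probe. In fasted muscle that dim probe was higher by 1.26 in mFoxO-TKO than in WT by limma (adjusted p = 0.0204). The main probe gave 0.10 and the remaining one 0.23 there, neither passing. The calcium channel Mcoln1 and Scarb2, which carries glucocerebrosidase to the lysosome, gave 0.19 and -0.03 in mFoxO-TKO and 0.25 and 0.30 in WT muscle, none passing. The Scarb2 spot of the fasted mFoxO-TKO replicate 1 array lay in the patch of lost signal, and without that array its mFoxO-TKO value turned to 0.38 (adjusted p = 0.16).

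Of the 6 V-ATPase members, fasting raised 1 in mFoxO-TKO muscle (4.29% of all genes rose), as many as among the cathepsins and the membrane proteins. In WT muscle it raised 4 (11.2% of all genes rose), more than in any other class. The WT calls of Atp6v0d1 and Atp6v1b2 were lost when single arrays were left out, as given below. By limma 0 fell in either genotype (4.22% and 9.57% of all genes fell), also at an unadjusted p under 0.05. The class medians were 0.23 in mFoxO-TKO and 0.52 in WT muscle, beside 0.04 and 0.02 over all genes. The other class medians ran from -0.42 to 0.08 in mFoxO-TKO and from -0.14 to 0.27 in WT muscle. Those of mFoxO-TKO include the Ctsd, Ctsz, Gusb and Scarb2 spots in the patch of lost signal, and those of WT the Ctsh spot in a smaller patch. Class medians without these spots were not computed, and classes were not tested against each other. Over 12 further V-ATPase genes, listed apart from the 36, the medians were 0.09 in mFoxO-TKO and 0.06 in WT muscle. Atp6v1h, the subunit that regulates ATP hydrolysis, stood at 1.38, 0.82, 1.36 and 1.02 in fasted and 0.59, 0.11, 0.10 and 0.20 in fed mFoxO-TKO muscle, and at 1.97, 1.84, 1.70 and 2.55 in fasted against 0.23, 0.23, 0.11 and 0.13 in fed WT muscle. The fed groups overlapped, the fasted knockout samples lay above both, and the fasted WT samples lay above those. Fasting raised Atp6v1h 1.86-fold in mFoxO-TKO (0.89 ± 0.19, adjusted p = 0.00807) and 3.58-fold in WT muscle (1.84 ± 0.19, adjusted p = 8.92e-06), and it was 1.83-fold lower in mFoxO-TKO than in WT when fasted (-0.87 ± 0.19, adjusted p = 0.00693).

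Atp6v1a, the catalytic subunit, stood at 3.33, 3.06, 2.60 and 2.80 in fasted and 3.37, 3.41, 2.95 and 2.93 in fed mFoxO-TKO muscle, and at 3.66, 3.82, 3.54 and 4.11 in fasted against 2.90, 3.24, 2.91 and 2.89 in fed WT muscle. The 4 fasted WT samples lay above the other 12. Atp6v1a rose 1.74-fold in WT muscle (0.80 ± 0.18, adjusted p = 0.00563), with -0.22 ± 0.18 in mFoxO-TKO (adjusted p = 0.548), and was 1.78-fold lower in mFoxO-TKO than in WT when fasted (-0.83 ± 0.18, adjusted p = 0.00827). A second Atp6v1a probe gave 0.75 for fasting in WT muscle (adjusted p = 0.00753) and -0.75 for the knockout in fasted muscle (adjusted p = 0.0144). Atp6v1b2, which pairs with the catalytic subunit, stood at -0.41, -0.56, -0.20 and -0.27 in fasted and -0.48, -0.67, -0.51 and -0.45 in fed mFoxO-TKO muscle, and at 0.04, -0.22, 0.25 and 0.23 in fasted against -0.29, -0.58, -0.53 and -0.27 in fed WT muscle. It rose by 0.49 ± 0.14 in WT muscle (adjusted p = 0.0177), which was lost without WT fasted 3 or 4 or WT fed 2 or 3 (adjusted p up to 0.059). It was also lost with scaling on probes well above background on every array (0.36, adjusted p = 0.139), in the authors' value table (0.35, adjusted p = 0.152) and with normexp (0.43, adjusted p = 0.0643). The knockout value in fasted muscle was -0.43 (adjusted p = 0.0619), and it passed with the replicate block.

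In the V0 sector, Atp6v0d1 averaged 3.73 ± 0.30 in fasted and 3.30 ± 0.23 in fed mFoxO-TKO muscle, and 3.89 ± 0.23 in fasted against 3.34 ± 0.17 in fed WT muscle (SD, n = 4 each). It rose by 0.55 ± 0.17 in WT muscle (adjusted p = 0.0347), a call lost without WT fasted 1, 2 or 4 or WT fed 1, 3 or 4 (adjusted p up to 0.101). The mFoxO-TKO value was 0.43 ± 0.17 (adjusted p = 0.153), and it passed with the replicate block. Atp6v0a1, the subunit that anchors the proton path, and the accessory subunit Atp6ap1 gave 0.27 and 0.19 in mFoxO-TKO and 0.31 and -0.01 in WT muscle, none passing.

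**Figure D5:**
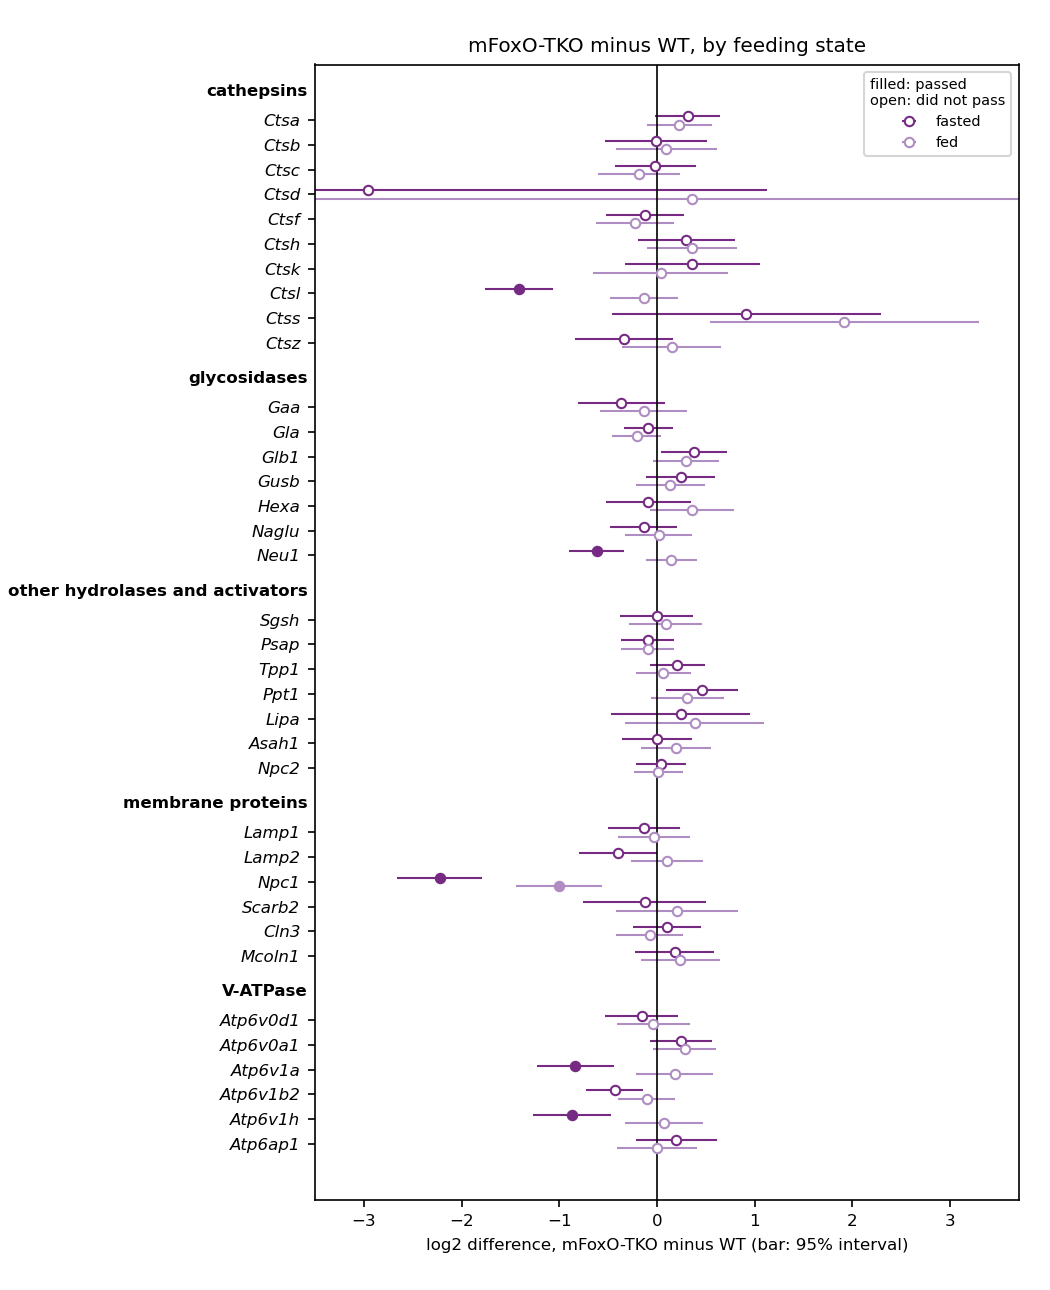
mFoxO-TKO minus WT difference of each lysosomal gene on the log2 scale (x axis), in fasted and in fed muscle, with 95% intervals from limma; filled points passed at an adjusted p under 0.05. In fasted muscle Npc1 (-2.22), Ctsl (-1.41), Atp6v1h (-0.87), Atp6v1a (-0.83) and Neu1 (-0.62) passed, and in fed muscle Npc1 (-1.0).

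Whether fasting acted differently in the knockout was tested directly, as the fasting change in mFoxO-TKO minus that in WT. Ctsl was the 1 member that passed, with a smaller change in mFoxO-TKO (0.724% of all genes passed in that direction), and 0 passed in the other direction by limma (0.423% of all genes), also at an unadjusted p under 0.05. The Ctsl difference was -1.28 ± 0.23 (95% interval -1.77 to -0.79, adjusted p = 0.0127); it passed with each array left out (adjusted p up to 0.0356) and was -1.12 and -1.45 within the slides, of which the first did not pass (adjusted p = 0.653). Npc1 had a difference of -1.22 ± 0.29 (adjusted p = 0.0595), Neu1 of -0.76 ± 0.18 (adjusted p = 0.0616) and Atp6v1a of -1.02 ± 0.26 (adjusted p = 0.0814). These 3 passed with the slide as a block, at adjusted p of 0.0368, 0.0312 and 0.0257, where 2.63% of all genes passed, against 1.15% without the block. Within slides 1 and 2 the differences were -1.44 and -1.0 for Npc1, -0.86 and -0.65 for Neu1, and -0.87 and -1.16 for Atp6v1a. Without the fasted mFoxO-TKO replicate 1 array, 3 members passed, where 2.06% of all genes passed, and 2 members passed without mFoxO-TKO fasted 3 or WT fasted 2. Atp6v1h gave -0.95 ± 0.26 (adjusted p = 0.117). A p that misses the threshold does not show that fasting acted alike: among the 35 members that did not pass, the 95% interval reached a median of 0.54 to either side on the log2 scale.

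The E-box core was in windows of members that rose, fell and did not pass. Of the 9 members raised by fasting in WT muscle, 6 had a window, and 4 of those held the E-box core (Ctsf, Ctsl, Atp6v0d1 and Atp6v1a). It was in windows of 2 of the 6 members that fell (Glb1 and Cln3) and of 8 of the 18 members that did not pass and had a window. The FoxO core was in windows of 1 member that rose (Ctsl) and 2 that fell (Ctsk and Ppt1), and of 0 of those 18 members. With 3 windows holding it in all, no comparison was made. Npc1, Atp6v1h and Atp6v1b2 had no window to search.

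Other genes of the same pathway, listed apart from the 36, also moved in both directions. Of all genes, 4.29% rose and 4.22% fell with fasting in mFoxO-TKO muscle, and 11.2% rose and 9.57% fell in WT muscle. Of 30 further lysosomal hydrolases, 1 rose and 3 fell with fasting in mFoxO-TKO muscle, and 2 rose and 7 fell in WT muscle. The falls in WT muscle were led by the ganglioside activator Gm2a (-1.35, adjusted p = 0.00158), the acid phosphatase Acp5 (-1.20, adjusted p = 0.0176) and the mannosidase Manba (-1.0, adjusted p = 0.00133), and those in mFoxO-TKO muscle included Acp5 (-1.42, adjusted p = 0.0155) and the amidase Naaa (-0.83, adjusted p = 0.0116). In fasted muscle the hyaluronidase Hyal1 was higher by 1.26 (adjusted p = 0.00632) and Plbd2 lower by 0.77 (adjusted p = 0.00367) in mFoxO-TKO. Of 12 further V-ATPase genes, 0 changed with fasting in mFoxO-TKO muscle by limma, also at an unadjusted p under 0.05; 2 rose in WT muscle, the accessory subunit Atp6ap2 (0.88, adjusted p = 1.65e-04) and the V0 subunit Atp6v0e (0.52, adjusted p = 0.0135). Both were lower in mFoxO-TKO than in WT when fasted, at -0.53 (adjusted p = 0.0137) and -0.85 (adjusted p = 9.15e-04).

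Of 22 further membrane proteins, 1 rose and 1 fell with fasting in mFoxO-TKO muscle, and 1 rose and 2 fell in WT muscle. In mFoxO-TKO muscle these are 4.55% each, beside 4.29% and 4.22% of all genes. In WT muscle they are 4.55% and 9.09%, beside 11.2% and 9.57% of all genes. The nucleoside transporter Slc29a3 fell in both genotypes (-0.75, adjusted p = 0.00701, in mFoxO-TKO and -0.92, adjusted p = 5.35e-04, in WT), and the sialic acid exporter Slc17a5 rose in both (0.61, adjusted p = 0.00979, and 0.51, adjusted p = 0.0119). Laptm4b fell in WT muscle (-0.57, adjusted p = 0.00734) and was higher by 0.64 in fasted mFoxO-TKO than in fasted WT muscle (adjusted p = 0.00683). Of 12 genes for delivery of hydrolases and their inhibitors, 0 changed with fasting in mFoxO-TKO muscle by limma, also at an unadjusted p under 0.05. In WT muscle 2 rose, the cathepsin inhibitor Cstb (0.61, adjusted p = 0.0414) and the sorting receptor Sort1 (0.49, adjusted p = 0.0394). These 2 are 16.7% of the list, beside 11.2% of all genes. In fasted muscle Sort1 (-0.95, adjusted p = 0.00107) and the inhibitor Cst3 (-0.60, adjusted p = 0.00343) were lower and the sorting adaptor Gga2 higher (0.71, adjusted p = 0.0252) in mFoxO-TKO, and Cst3 was lower in fed mFoxO-TKO muscle too (-0.62, adjusted p = 0.0166).

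Of 15 regulators of lysosomal genes, 1 rose with fasting in mFoxO-TKO muscle (6.67%, beside 4.29% of all genes). In WT muscle 2 rose (13.3%, beside 11.2% of all genes). By limma 0 fell (4.22% and 9.57% of all genes fell), with 1 lower in WT muscle at an unadjusted p under 0.05. Flcn, a partner of the Rag GTPases that keeps TFEB out of the nucleus, rose by 0.68 ± 0.16 in mFoxO-TKO (adjusted p = 0.014) and 1.31 ± 0.16 in WT muscle (adjusted p = 3.63e-05), and its fasted mFoxO-TKO level was 0.73 below that of fasted WT muscle (adjusted p = 0.00714). Its partner Fnip2 rose by 0.81 in WT muscle (adjusted p = 0.0336).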

How the data were processed

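Arrays were 1-colour Agilent mouse arrays, 1 per sample. Spot intensity was read by the authors with Agilent Feature Extraction, version 11.0.1.1 per the file headers and 9.5 per the submitters' processing notes. The deposited processed signal is an intensity after the software's background correction. Flags for uneven, saturated and well-above-background spots came with it, per the file headers, as marks of 0 or 1. The authors' deposited value table holds scores without a stated unit: all of its values lay within 2% of 1 factor per array times the processed signal, its direction and scale follow from that, and the columns' medians were 22 to 25 with a 75th percentile of 100. Its 169 values at 0 were taken as missing, and it served as an alternative.

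Uneven spots were left out, spots of 1 probe averaged, and log2 of the signal minus each array's 75th percentile (controls left out) was taken. Of 55681 probes, 28572 exceeded background clearly (the software's mark) throughout 1 group or more and were kept, and the brightest probe stood for a gene. A model of 4 group means was fitted with limma 3.58.1 in R 4.3.3 (lmFit, eBayes) over 21281 genes, and Benjamini-Hochberg adjusted p-values under 0.05 passed. ± beside a change is its standard error. The fit has 12 residual degrees of freedom, and the number of arrays and lost signal on them limit its precision. The script was tested on simulated data. Symbols came from a RefSeq table through the accession of each probe; 28331 probes matched and 27350 did not. Coordinates are those of GRCm38.p6, while the headers name mm9, so positions are given for the printed promoter windows only, in GRCm38.p6.

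The members and lists were chosen with earlier results of these data known. Every array's value is given for Ctsl and for the 3 members of each class with the lowest adjusted p over the contrasts, and up to 3 changed genes of each other list are named; the text says where an item was chosen after its values were seen. Other alternatives were scaling, quantile normalization, normexp with an offset of 50, the probe filter and probe choice, uneven spots, spots in patches of lost signal (chosen after seeing the data), slide, replicate block, array weights and each array left out.

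The replicate numbers mark slide and array row, per the file headers. Deviations from the group means over 19338 genes correlated between same-numbered samples at 0.14 to 0.39 for fasting in mFoxO-TKO muscle, 0.11 to 0.30 for the knockout in fasted and 0.16 to 0.33 in fed muscle, so these numbers were taken as pairs. For fasting in WT muscle replicate 2 reached 0.06, and the numbers were not taken as pairs, though replicates 1, 3 and 4 there matched their own number best. For the knockout in fasted muscle, mFoxO-TKO replicates 1 and 3 matched numbers 2 and 4 best. For the knockout in fed muscle and fasting in mFoxO-TKO muscle, replicate 3 matched number 4 best. By best match the pairs taken were thus no clearer, and the replicate block is an alternative only. 1 gene of the further lysosomal hydrolases is counted but not reported by name here.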

Additional observations from a re-analysis of the deposited data

Results flagged for a closer look

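In 139 sets of 4 values (1 gene in 1 group), 9 had a sample set far from its 3 fellows by Dixon's criterion, and chance gives about 1 in 20 sets. On the fasted mFoxO-TKO replicate 1 array, Ctsd read -3.81 beside a median of 6.56 in the others and Scarb2 1.41 beside 3.03, both in the patch of lost signal. On the same array Ctsl read 6.12 beside 5.50, Gla 7.09 beside 6.80 and Atp6ap1 3.69 beside 2.72. In fasted WT muscle Ctsl read 6.75 in replicate 2 beside 7.17. In fed muscle, Npc2 read 2.51 in mFoxO-TKO replicate 3 beside 2.57, Gaa 5.87 in WT replicate 1 beside 6.76, and Atp6v1a 3.24 in WT replicate 2 beside 2.90.

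The fasting change of Ctsl in mFoxO-TKO minus that in WT muscle, -1.28 on the log2 scale, was set apart by its own test. The part of any artefact in these values was not tested.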

How the results depend on the processing

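Over 2500 single-member comparisons with an alternative, 2212 kept direction and side of the threshold, 49 lost a call, 110 gained one, 129 moved without a call and 0 reversed. Only the calls of the main fit, counted in brackets below, could be lost, and most comparisons were of members that had not passed. Counts of members that passed moved more. For fasting in mFoxO-TKO muscle (4), 11 passed with scaling on probes well above background on every array, 7 with quantile normalization, 2 without a filter on dim probes, 12 in the authors' table, 9 with the slide as a block, 0 within slide 1, 8 with the replicate block and 11 with array weights. The matching shares of all genes were 13.8%, 10.6%, 2.70%, 17.9%, 13.1%, 0.315%, 14.9% and 20.3%, against 8.51%. For fasting in WT muscle (15), 8 passed without the filter and 2 within slide 1, beside 9.52% and 3.48% of all genes, against 20.8%. For the knockout in fasted muscle (5), 10 passed with that scaling, 8 with quantile normalization, 10 in the authors' table, 8 with the slide as a block, 1 within slide 1 and 9 with the replicate block. The matching shares of all genes were 15.9%, 12.3%, 20.7%, 14.2%, 1.67% and 15.8%, against 9.41%. In fed muscle (1), 0 passed without the filter, 2 with the slide as a block and 0 within slide 2, beside 0.297%, 1.98% and 0.155% of all genes, against 1.02%. For the difference in response (1), 2 passed with that scaling, 2 with normexp, 0 without the filter, 2 with only probes well above background on every array, 3 with uneven spots kept, 2 in the authors' table, 4 with the slide as a block, 0 within slide 1, 5 with the replicate block, 5 with array weights and 4 with patches left out. The matching shares of all genes were 2.84%, 0.827%, 0.215%, 1.73%, 1.99%, 5.20%, 2.63%, 0.0235%, 3.28%, 3.94% and 1.55%, against 1.15%. With 1 array left out the counts of these contrasts, in the order given, ran from 2 to 5, 8 to 17, 5 to 6, 0 to 2 and 1 to 3. Shares of all genes then ran from 5.07% to 9.91% for fasting in mFoxO-TKO and 16.2% to 25.4% in WT muscle. For the knockout they ran from 7.21% to 10.8% in fasted and 0.489% to 1.46% in fed muscle. Without the filter 36717 genes were tested, and within a slide 2 arrays a group; the cause of the other moves was not tested. The replicate block ended no call of a member and added those given in the report, Lamp2 (-0.58, adjusted p = 0.037), Npc1, Neu1 and Atp6v1a for the difference in response, and, for fasting in WT muscle (17), where the numbers were not taken as pairs, Hexa and Atp6v0a1. The shares of all genes that passed moved too: for fasting in mFoxO-TKO muscle 20.3% with array weights and 17.9% in the authors' table, against 8.51%. For the difference in response they were 3.28% with the replicate block, 3.94% with array weights and 5.20% in the authors' table, against 1.15%.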
